A study of Mus musculus with 4 samples.

Results

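The miRNA miR-206-3p was followed across its Ago2-bound targets in the mouse plantaris after mechanical overload (MOV). Its targets were all peaks of the chimeric eCLIP-seq files whose miRNA was named miR-206-3p, 4088 of 93468 lines in the control library and 4030 of 100897 in the mimic library, where a line is 1 miRNA in 1 peak. Each peak was given the gene it overlapped on its own strand (genes whose strand was not known were used where no other overlapped), and the lines of miR-1a-3p on exactly the same peak were set beside it. In chimeric eCLIP-seq, Ago2 is crosslinked and pulled down and a bound miRNA is joined by ligation to the RNA fragment it sits on, so that a chimeric read names both.

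Both libraries came from the plantaris of male C57BL/6J mice, 5 months old, after 10 days of MOV, in which part of the gastrocnemius-soleus complex is removed so that the plantaris carries the load. MOV control plantaris (left leg) received a lentivirus with a scramble control, and MOV mimic plantaris (right leg) received a lentivirus with a miR-1 mimic. Both viruses used a mouse CMV promoter, which is not restricted to muscle fibers, and carried Turbo-GFP as a reporter. Each group had 1 library, so that no test between them was possible, and the values below compare libraries. Intervals are 95%. Those of reads, of their ratios and of shares of reads, on reads rounded to whole numbers, cover counting error only. Those of medians and of shares of peaks are over peaks, which are not replicates of a group. Whether both muscles came from 1 mouse was not given in the sources used here, and the input libraries were not analysed here.

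miR-206 belongs to the myomiRs, the miRNAs made mainly in striated muscle. It is encoded beside miR-133b, is linked to muscle differentiation, regeneration and the neuromuscular junction, and has the same seed as miR-1, the stretch near the 5′ end that pairs with targets. The miRNAs miR-206-3p and miR-1a-3p differ in bases toward the 3′ end, so a peak that holds both shows how Ago2-bound reads of 1 target are divided between them. The mimic is a miR-1, and in these files virus-derived miR-1 and the muscle's own miR-1a-3p carry 1 name and cannot be told apart.

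The mature sequence of miR-206-3p is shown with its seed (bases 2 to 8) in capitals, beside that of its neighbour miR-133b-3p, both from RefSeq on GRCm38. They lie at chr1:20679055-20679076 and chr1:20682834-20682855 on the plus strand, and their hairpins begin 3759 bases apart.
mmu-miR-206-3p: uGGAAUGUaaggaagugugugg
mmu-miR-133b-3p: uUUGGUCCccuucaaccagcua
Of the RefSeq table, miR-6349 and miR-6382 also held this seed, and neither had a line in either library. miR-1a-3p was named only.

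A full match to the seed reads ACATTCC in a target, and the match to bases 2 to 7 that lies inside it reads CATTCC. Both were searched on the sense strand of 1 GENCODE transcript per gene (NCBIM37) and on the mitochondrial chromosome. The sequences below are from genes of the 174 nuclear sites described further on, those with a seed match and the highest miR-206-3p share of reads first and 4 among those with the lowest share after them. They show what miR-206-3p can pair with besides the seed that it has in common with miR-1a-3p. Capitals mark the seed match at the right and, before it, the longest run complementary to miR-206-3p bases 9 to 22. In transcripts with several matches, the match with the longest run is printed.
Dlc1, coding: tacccagaggACACggtgttctACATTCCc
Fn1, coding: ccaagcacggcCACTTCCgtgaACATTCCt
Mfge8, 3′ untranslated: cccatccctctctgCACACcacACATTCCt
Usp33, 3′ untranslated: acttgatgCACACACattcaaaACATTCCg
Tpm4, 3′ untranslated: tcagttaacatctCACACTgaaACATTCCa
Top2b, coding: tggtgaagattatACAtgcataACATTCCa
Uhmk1, 3′ untranslated: tttaaaacattgCCTTtctcatACATTCCt
Nedd4, coding: aggaagctcaagaagcagACTgACATTCCa
Ktn1, coding: ccccttattcatgcaactACTTACATTCCt
The transcripts are of another build than the peaks, so whether a match lies under its gene's peak was not analysed. A match is a description of letters and not a binding site.

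The first 5 genes hold runs of 4 to 7 bases before the seed match, and the last 4 hold runs of 3 or 4. Sar1b, the gene whose site had the highest share of all, held no seed match. Its transcript instead contains 12 unbroken bases complementary to miR-206-3p bases 11 to 22, in the 3′ untranslated part, marked in capitals.
Sar1b: gcggccggcCCACACACTTCCagccctcag
A run this long was present in 56 of 22594 transcripts (0.248%). Of those genes, 26 had a peak of any miRNA in the control library and 10 of the 26 had a miR-206-3p peak, against 34.9% of all 5714 genes with a transcript and a peak. In the mimic library, 11 of 30 such genes had one, against 33.1% of 5958, and both shares were near that background.

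miR-206-3p was the miRNA with the third most reads in both libraries. It had 15264 chimeric reads in MOV control, 6.57% of 232408, and 14448 in MOV mimic, 5.57% of 259207. miR-1a-3p had 27411 reads in MOV control and 35876 in MOV mimic. The other strand of the hairpin, miR-206-5p, was close to absent, with 1.02 reads in MOV control and 2.82 in MOV mimic. A read number reflects target RNA, Ago2 and cells together, and in a whole muscle fewer cells of a type and less RNA per cell cannot be told apart.

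Most miR-206-3p peaks were thin, and a few carried most reads. The median peak had 1 read in both libraries, and 48.2% of the peaks in MOV control and 47.7% in MOV mimic were under 1 read, since the files hold fractions. There were 170 peaks of 10 or more reads in MOV control and 169 in MOV mimic, and they held 60.9% and 59.9% of all miR-206-3p reads. By kind of gene, protein-coding genes took 73.9% of the reads in MOV control and 73.1% in MOV mimic, and mitochondrial genes took 21.2% and 22.2%, from 34 and 36 peaks. A miR-206-3p peak held a median of 4 miRNAs in both libraries, against 3 over all peaks. miR-206-3p was the leading miRNA in 1137 of its peaks in MOV control (27.8%) and in 1027 in MOV mimic (25.5%).

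Genes with at least 1 miR-206-3p peak numbered 2250 in MOV control and 2222 in MOV mimic, and 1340 of them were in both, which is 59.6% of the control genes and 60.3% of the mimic genes. With a minimum of 3 reads per peak, 480 genes remained in MOV control, 481 in MOV mimic and 304 in both. Most targets also held miR-1a-3p somewhere in the gene, and 504 genes in MOV control and 430 in MOV mimic did not. Of those, 70 were without miR-1a-3p in both libraries. The overlap between libraries of genes of other miRNAs was not analysed, so none of these overlaps can be called particular to miR-206-3p. Of peaks of any miRNA, 10754 were paired between the libraries, of 20754 in MOV control and 21872 in MOV mimic.

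The question that the shared seed raises is how far the peaks of miR-206-3p were its own. The plot of reads of both miRNAs per peak gives the raw division. Of the miR-206-3p peaks, 65.1% (63.6 to 66.6) in MOV control and 70.3% (68.8 to 71.7) in MOV mimic also held miR-1a-3p. The share followed the depth of the peak. It was 55.8% in MOV control and 62.4% in MOV mimic for peaks under 1 read, and 93.5% in both libraries for peaks of 10 or more reads, of which 11 in each library were without miR-1a-3p. In the other direction, 48.8% of the miR-1a-3p peaks in MOV control and 44.6% in MOV mimic held miR-206-3p. miR-133a-3p, a myomiR with another seed, was on 38.2% and 41.8% of the miR-206-3p peaks. As a background, miR-133a-3p was on 7386 of all 20754 peaks in MOV control and 8212 of 21872 in MOV mimic. miR-1a-3p was on 5459 and 6344 of them.

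**Figure D1:**
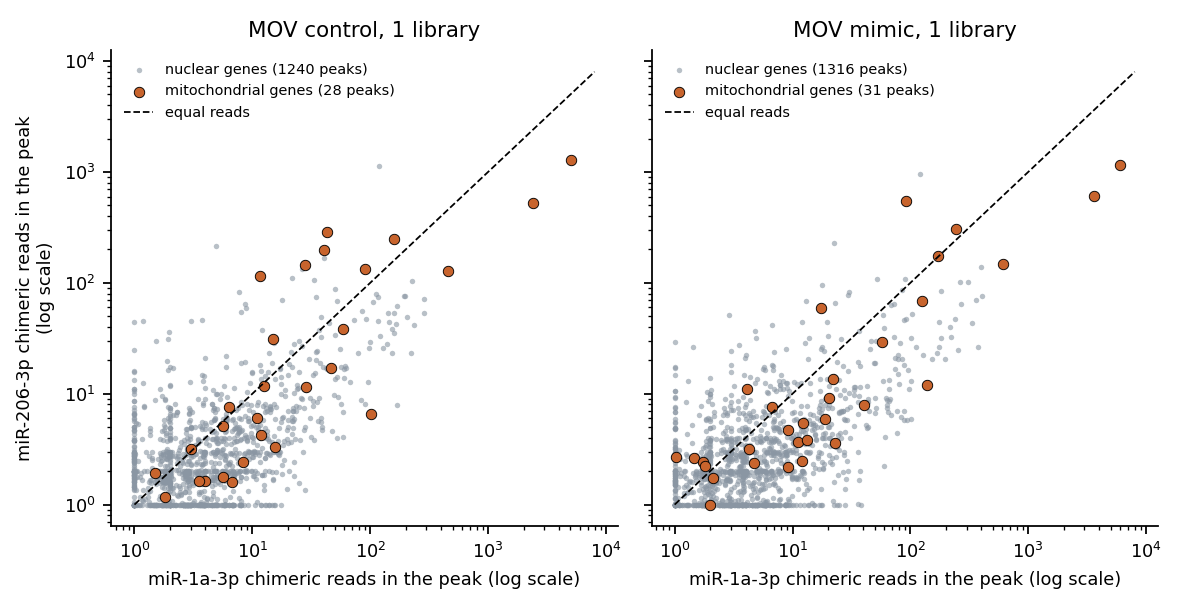
Chimeric reads of miR-206-3p against those of miR-1a-3p in each peak that held at least 1 read of both, on log axes, for the control (1240 nuclear and 28 mitochondrial peaks) and the mimic (1316 and 31). Points above the dashed line have more miR-206-3p than miR-1a-3p reads. The highest nuclear point is the Fn1 peak, with 1126 against 120 reads in MOV control.

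Over the peaks that held both, miR-206-3p had 36.03% (35.6 to 36.5) of the reads of the pair in MOV control and 29.5% (29.03 to 29.9) in MOV mimic. Outside the mitochondrial chromosome the share was 40.1% in MOV control and 33.2% in MOV mimic, and on that chromosome it was 27.2% and 22.03%. All nuclear peaks with either miRNA gave 39.1% (38.5 to 39.6) and 31.4% (31.0 to 31.9). These last shares are the background for the genes and lists below.

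Single sites differed widely in that division. There were 174 nuclear sites, in 122 named genes, with at least 20 reads of the pair in each library. Their miR-206-3p share ranged from 0 to 100% in both libraries, with a median of 26.5% in MOV control and 21.1% in MOV mimic. miR-206-3p had more reads than miR-1a-3p at 42 sites in MOV control and 32 in MOV mimic. It did so in both libraries at 30 of the 174, or 17.2%. Shares over 80% were present at 17 sites in MOV control and 12 in MOV mimic.

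The same sites were high or low in both libraries. Across the 174 sites, Pearson's r between the libraries was 0.94 and Spearman's rank correlation 0.86. The sites are no replicates and have target, peak calling and miRNA sequence in common, so this describes the sites and has no p-value.

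**Figure D2:**
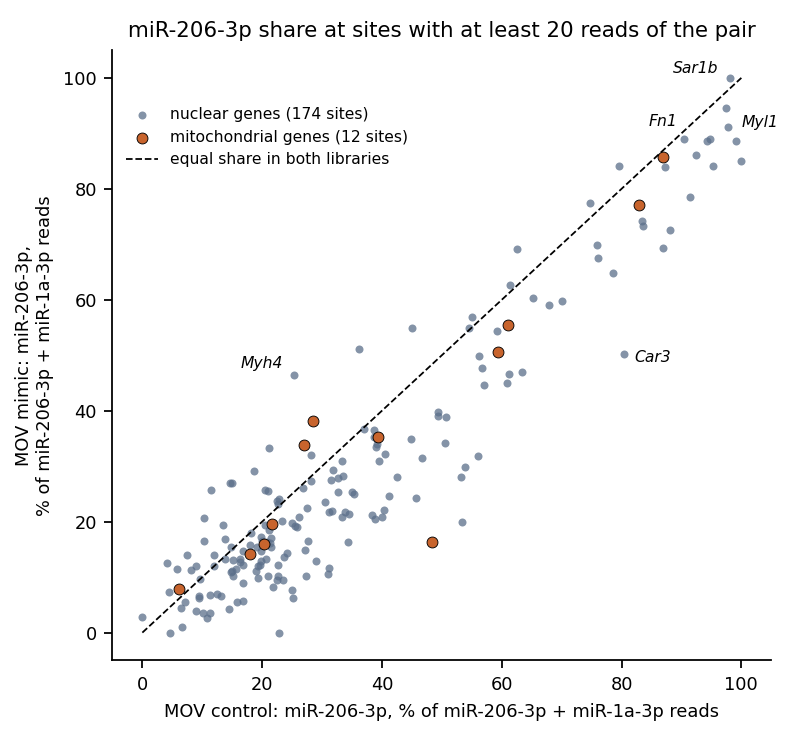
miR-206-3p share of the reads of the pair (percent) in MOV mimic against the control at 174 nuclear and 12 mitochondrial sites with at least 20 reads of the pair in each library, 1 point per site. Most points lie near and under the line of equal share, with 139 of the nuclear sites lower in MOV mimic. Named points are Sar1b and Fn1 and those sites of Car3, Myl1 and Myh4 whose intervals lay apart.

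The other pair of alike myomiRs, miR-133b-3p and miR-133a-3p, which differ only at the 3′ end, gave a narrower range. At 341 nuclear sites with at least 20 reads of that pair in each library, the miR-133b-3p share had a median of 22.1% in MOV control and 18.2% in MOV mimic and a highest value of 62.2% and 46.5%. miR-133b-3p led at 0 of the 341 sites in both libraries (0%), against 17.2% for miR-206-3p. The interquartile range was 18.01 points in MOV control and 15.4 in MOV mimic, against 31.9 and 23.99 points for miR-206-3p. How reads of such alike miRNAs were told apart was not given in the sources used here. The ranges of both pairs therefore need not measure the same thing.

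The sites with the highest miR-206-3p share were in genes of different roles. At Sar1b, a GTPase of vesicles leaving the endoplasmic reticulum, miR-206-3p had 44.4 reads and miR-1a-3p 0.843 in MOV control, and 69.8 against 0 in MOV mimic. At Zfp871, a zinc finger gene, the reads were 45.5 against 1.18 in MOV control and 50.9 against 2.90 in MOV mimic. Both were near the upper limit of the scale in both libraries. At chr1:66924309-66924418 in Myl1, the essential light chain of fast myosin, they were 216 against 4.88 in MOV control and 230 against 22.3 in MOV mimic. At Cox6a2, the muscle form of a cytochrome c oxidase subunit, they were 29.9 against 0.267 in MOV control and 36.9 against 4.77 in MOV mimic. At Dlc1, a GTPase-activating protein, they were 20.8 against 0 in MOV control, a share of 100% (83.9 to 100), and 22.6 against 4 in MOV mimic, a share of 85.0% (66.3 to 95.8). The intervals of the libraries overlapped at Sar1b, Zfp871, Cox6a2 and Dlc1, and those of Myl1 did not.

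At the other end, miR-1a-3p held nearly all reads of the pair. Top2b, a DNA topoisomerase, had 0 miR-206-3p and 23.95 miR-1a-3p reads in MOV control and 1.01 and 35.7 in MOV mimic. Uhmk1, a kinase, had 1.36 and 28.0 in MOV control and 0 and 32.1 in MOV mimic. Nedd4, a ubiquitin ligase, had 1.39 and 19.7 in MOV control and 0.307 and 28.7 in MOV mimic. All 3 held in their transcript the seed match common to both miRNAs. Fth1, the ferritin heavy chain, had 4.04 and 58.8 in MOV control and 1.67 and 36.3 in MOV mimic. The peak at chr11:67250329-67250396 in Myh4, the fast IIB myosin, had 7.96 and 169 in MOV control and 6.99 and 88.1 in MOV mimic.

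The seed match is common to both miRNAs, so it could not be expected to divide their reads. Genes and not sites were compared here. The reads of a gene's sites were pooled, and the match was sought anywhere in 1 transcript. Of the 122 genes, 112 had a transcript, and 40 of those (35.7%) held ACATTCC, against 16.2% of all 22594 transcripts. The median of the mean share was 22.3% over the genes with the match and 24.9% over the 72 genes without it. Among the 40 genes the run complementary to bases 9 to 22, in the 22 bases before the match, was compared with the share. With a run of up to 3 bases, 11 genes had a median share of 18.8%, from 1.38 to 54.8%. With 4 or 5 bases, 24 genes had a median of 21.8%, from 2.32 to 92.5%. With 6 or more, 5 genes (Fn1, Usp33, Plin4, Tpm4 and Ndrg3) had a median of 71.7%, from 39.9 to 89.6%.

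A run of 6 or more bases preceded 5.55% of the 4256 matches in all transcripts. With 1 match counted per gene, the one with the longest run, it was found in 12.5% of the 40 genes, so that the counts are not on 1 basis. Long runs occurred also where the share was low. The longest run anywhere in the Nedd4 transcript, outside its seed match, was 9 bases, and 13.7% of all transcripts had one that long. Dlc1 and Mfge8 had shares over 80% with runs of 4 and 5 bases. The pattern was noticed after the values were seen and was not tested.

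**Figure D3:**
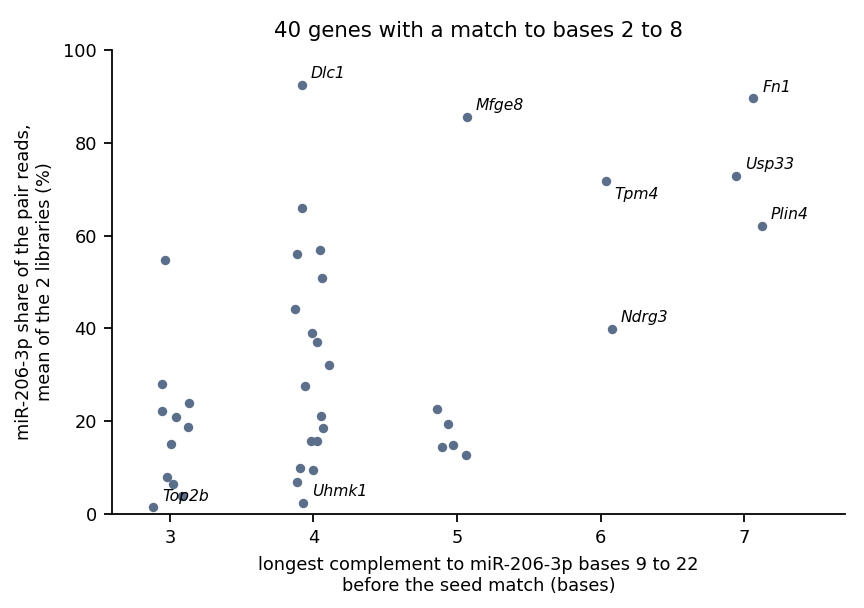
miR-206-3p share of the reads of the pair (percent, mean of the 2 libraries) against the length in bases of the longest run complementary to miR-206-3p bases 9 to 22 before the seed match, for the 40 genes with a match (1 point per gene, small sideways offsets). The 5 genes with runs of 6 or 7 bases lie at 39.9% or higher, while genes with runs of 3 to 5 bases cover almost the whole range.

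Some peaks held miR-206-3p and no miR-1a-3p line. Their genes could hold miR-1a-3p at other peaks, as Fn1 did, with 126 miR-1a-3p reads in MOV control and 131 in MOV mimic. Of 1731 peaks, paired between the libraries whatever their miRNA, that held miR-206-3p in both, 140 had no miR-1a-3p line in either, 24 of them with at least 3 reads in both and 4 with at least 10. The 4 were in Pdzrn3, a ubiquitin ligase, with 16.0 miR-206-3p reads in MOV control and 14.2 in MOV mimic, Zfp385b, a zinc finger gene, with 14.7 and 15.2, Rgs2, a regulator of G-protein signalling, with 16.5 and 12.6, and Rrm1, the large subunit of ribonucleotide reductase, with 13.5 and 14.1. The reads at all 4 were alike in both libraries. The reverse, miR-1a-3p and no miR-206-3p in both, was found at 545 peaks, 55 of them with at least 3 reads in both and 1 with at least 10. The number of paired peaks with miR-1a-3p in both libraries is not given here. miR-1a-3p also had more lines, 5459 in MOV control and 6344 in MOV mimic, against 4088 and 4030 for miR-206-3p. The counts 545 and 140 therefore do not show which miRNA was more often without the other.

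Of 22 genes of these 24 peaks that had a transcript, 7 (31.8%) held ACATTCC. The same was true of 35.7% of the genes of the 174 sites and of 16.2% of all transcripts. Rgs2 and Rrm1 are shown because their peaks had at least 10 miR-206-3p reads, with the same capitals as above.
Rgs2, 3′ untranslated: ggagtccccCCACACACaaaggACATTCCa
Rrm1, 3′ untranslated: tgtcatCCACACcatttccaaaACATTCCa
Their runs were 8 and 6 bases long. Over the 7 genes, 4 had a run of 6 or more bases, and Itga11, Eif4g3 and Ptprg had runs of 3. Pdzrn3 and Zfp385b had no such match in the transcript used.

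Among nuclear genes, miR-206-3p reads were led by the matrix gene Fn1 and the sarcomere gene Ttn. The 10 nuclear genes with the most miR-206-3p reads held 24.8% of its reads in MOV control and 24.4% in MOV mimic. Fn1 encodes fibronectin, a glycoprotein of the extracellular matrix. It had 1159 miR-206-3p reads in MOV control and 996 in MOV mimic, 7.59% and 6.90% of all miR-206-3p reads, nearly all in 1 peak at chr1:71628443-71628544 on the minus strand (1126 and 962). miR-1a-3p had 120 reads on that peak in both libraries. miR-206-3p made up 71.0% of the reads of all miRNAs at Fn1 in MOV control and 71.6% in MOV mimic.

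**Figure D4:**
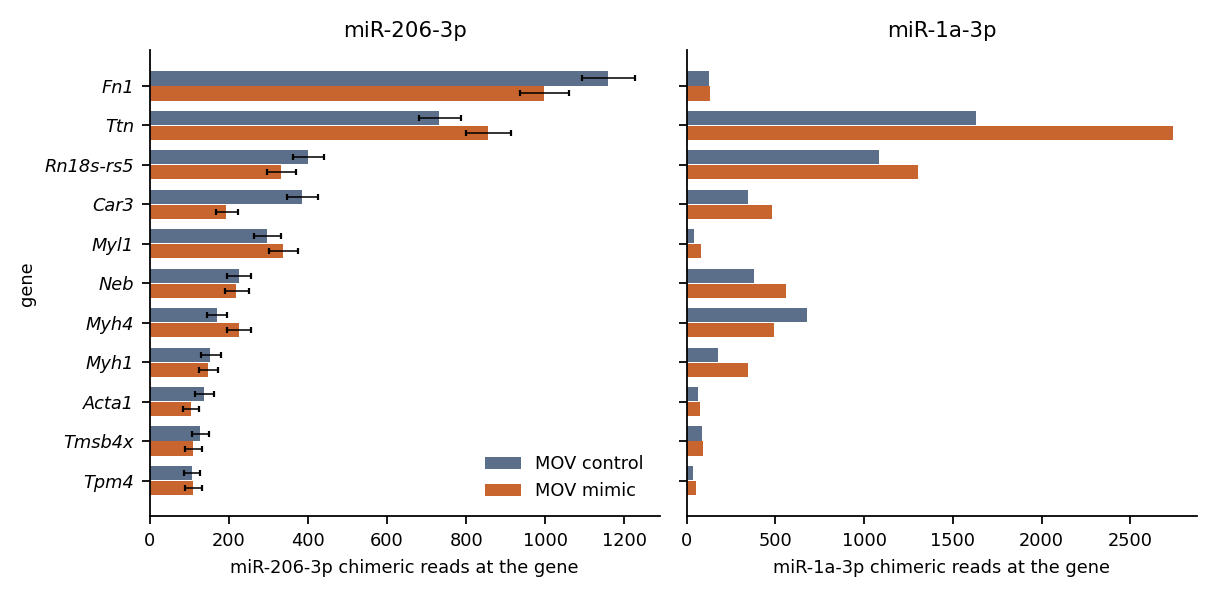
Chimeric reads of miR-206-3p (left) and miR-1a-3p (right) at the 11 genes that were among the 10 with the most nuclear miR-206-3p reads in at least 1 library, for control and mimic. Lines on the miR-206-3p bars are exact Poisson intervals. Fn1 leads for miR-206-3p and is low for miR-1a-3p, and Ttn leads for miR-1a-3p.

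Other leading genes leaned to either side. Myl1 had 297 miR-206-3p reads in MOV control and 337 in MOV mimic, 88.4% and 80.5% of the pair. Tpm4, a tropomyosin of the cytoskeleton, had 106 and 110, 76.0% and 67.4%. Acta1, skeletal muscle actin, had 138 and 104, 67.6% and 58.2%. For these 3 genes miR-206-3p had the larger part in both libraries. Tmsb4x, which binds actin monomers, had 127 and 109, 59.2% and 54.7%.

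The giant sarcomere proteins had many miR-206-3p peaks and a lower share. Ttn, titin, had 732 miR-206-3p reads in MOV control, in 123 peaks, and 855 in MOV mimic, 31.0% and 23.8% of the pair. Neb, nebulin, had 225 and 219 reads, 37.1% and 28.3%. Among the fast myosins, Myh1 had 153 and 147 reads, 46.2% and 29.9%, and Myh4 had 169 and 225, 20.1% and 31.5%. Among the 11 leading genes, the miR-206-3p share was higher in MOV mimic at Myh4 alone. Myosin heavy chain genes are alike in sequence, and how reads fitting several of them were placed was not given in the sources used here. The ribosomal RNA gene Rn18s-rs5 had 400 and 332 reads, 27.0% and 20.3%, and a gene of that kind is repeated in the genome.

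Car3, a carbonic anhydrase abundant in muscle, differed most between the libraries among these genes. It had 385 miR-206-3p reads in MOV control and 194 in MOV mimic, a ratio of 0.504 (0.422 to 0.600), while all miRNAs together had 1112 and 1176 reads there, a ratio of 1.06. Its miR-1a-3p reads were 345 and 482, and its miR-206-3p share was 52.7% and 28.7%. At the peak chr3:14870039-14870149 the reads were 167 miR-206-3p and 40.8 miR-1a-3p in MOV control and 85.3 and 84.3 in MOV mimic. Other ratios were 0.860 (0.789 to 0.936) at Fn1, where all miRNAs gave 0.853, 1.17 (1.06 to 1.29) at Ttn, where all gave 1.35, and 1.33 (1.09 to 1.64) at Myh4, where all gave 0.781. The totals of all miRNAs include miR-206-3p. It made up 71.0% of them in MOV control and 71.6% in MOV mimic at Fn1, so both ratios there were bound to be near each other. At Car3 it made up 34.6% and 16.5%. At Myh4 the miR-206-3p ratio ran against that of all miRNAs.

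Mitochondrial transcripts held large miR-206-3p peaks with shares as uneven as those of nuclear genes. mt-Rnr2, the large ribosomal RNA, had 1636 miR-206-3p reads in MOV control and 1208 in MOV mimic, 24.2% and 16.7% of the pair. ND5, a subunit of complex I, had 819 and 1082 reads, 52.7% and 49.9%. ND1 had 525 and 605, 17.99% and 14.3%, and ND4 had 165 and 177, 60.8% and 50.4%, both also complex I subunits. Within 1 transcript the sites differed. In ND5 the share was 86.9% in MOV control and 85.8% in MOV mimic at the peak that begins at base 12714 of the control, 61.1% and 55.5% at the peak from 13122, and 21.7% and 19.7% at that from 13409. In mt-Rnr2 it was 82.9% and 77.1% at bases 1850 to 1888 and 20.3% and 16.0% at bases 1590 to 1740, where the most miR-206-3p reads of all were found, 1293 and 1146.

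All 37 mitochondrial genes had identical spans in the annotations of both builds, so these peaks could be searched for the seed match directly. Of the 12 mitochondrial sites, 1 held ACATTCC and 3 held only CATTCC, with capitals as above. They are given with the base at which the match begins.
ND1, match at 3555: agaagctctACTactatcatcaACATTCCt
ND5, match at 12715: aggaataaaccaaCCACACctagCATTCCt
ND5, match at 13169: tcatataatattCCACcaaccagCATTCCa
ND5, match at 13510: cttaattaaattgtACTTtatatCATTCCt
Of all mitochondrial windows as long as the ND1 peak, 2.98% held ACATTCC, and of those as long as the 3 ND5 peaks, 5.56%, 7.75% and 9.05% held CATTCC. The ND5 site at 12715 had the longest run of the 4, 6 bases, and the highest share, and the ND1 site had 3 bases and the lowest. The peaks of mt-Rnr2 and ND4 held neither match.

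For the mimic against the control, miR-206-3p peaks had a median change near 0 on unscaled reads. Over 1751 pairs of overlapping peaks, matched among miR-206-3p peaks alone, the median log2 ratio of mimic to control reads was 0.00 (-0.03 to 0.03). For the 197 with at least 10 reads in 1 library it was -0.01 (-0.19 to 0.12), against 0.25 over the 3108 such peaks of all miRNAs, 0.40 for miR-1a-3p and 0.12 for miR-133b-3p. Of the 197, 19 (9.64%) were at least 2-fold higher in MOV mimic, where all miRNAs gave 17.2%, miR-1a-3p 22.1% and miR-133b-3p 10.7%, and 27 (13.7%) were at least 2-fold lower, where all miRNAs gave 7.63%, miR-1a-3p 4.27% and miR-133b-3p 6.07%. The mimic library was the deeper, and with reads divided by the library totals the median over the 1751 was -0.16 (-0.19 to -0.12).

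Within peaks, where library depth and target level cancel, miR-206-3p was lower against miR-1a-3p in MOV mimic. cDNA was also amplified with a miR-1 primer, and a difference between the libraries in that step would not cancel. With 1 library per group, such a difference cannot be told apart from a change in how reads were divided. At 1343 peaks with both miRNAs in both libraries, the log2 ratio of miR-206-3p to miR-1a-3p changed by a median of -0.48 (-0.55 to -0.37), with 62.4% of the peaks below 0. At the 169 of the 174 nuclear sites with both in both libraries it changed by -0.56 (-0.71 to -0.48), with 136 below 0. The share was lower in MOV mimic at 139 of the 174 sites, by a median of 5.63 points over all 174. At 7 sites (4.02%) it was lower with intervals that lay apart, and at 1 site, in Myh4, higher. The share of miR-133b-3p in its own pair was also lower in MOV mimic, at 219 of 341 nuclear sites (64.2%), and higher at 122. Its median change was -2.63 points, and its intervals lay apart and lower at 2 of the 341 sites (0.587%). Over nuclear peaks with both miRNAs of that pair, it had 24.2% (23.9 to 24.6) in MOV control and 21.8% (21.4 to 22.1) in MOV mimic. A lower share in MOV mimic was thus not particular to miR-206-3p.

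The 7 lower sites were in 6 genes. Among them were 2 Car3 sites, the one above and a neighbouring peak at chr3:14866842-14866891, with shares of 23.6% in MOV control and 9.56% in MOV mimic. Mb, myoglobin, the oxygen store of muscle, had 27.2% and 14.96%, from 52.9 and 32.0 miR-206-3p reads. Thbs1, a matrix glycoprotein, had 27.7% and 16.5%, from 75.8 and 46.9 reads. Myh2, the fast IIA myosin, had 38.8% and 20.4%, from 67.5 and 44.4 reads. In these, fewer miR-206-3p and more miR-1a-3p reads went together. A Ttn peak at chr2:76718028-76718136 went from 78.5 to 101 miR-206-3p reads with a share of 41.2% and 24.7%, since its miR-1a-3p reads went from 112 to 307. The Myl1 peak named before had 97.8% and 91.2%.

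The largest changes of single miR-206-3p peaks were at low counts. Map3k20, a stress kinase, had 24.3 reads in MOV control and 1.78 in MOV mimic, a ratio of 0.0731 (0.0095 to 0.336), while all miRNAs there had 28.6 and 7.62. Nrap, an anchoring protein of growing myofibrils, had 25.03 and 2.18, with 33.6 and 11.6 for all miRNAs. Gabarap, an autophagy protein, had 10.9 and 1.03, with 38.6 and 31.7 for all. Those totals include miR-206-3p, and the other miRNAs alone had 4.23 and 5.84 reads at Map3k20, 8.59 and 9.37 at Nrap and 27.7 and 30.7 at Gabarap. At all 3 the lower total came from miR-206-3p. Higher in MOV mimic were peaks of Ttn (2.53 and 25.4), of ND2 (1.64 and 11.1) and of Ankrd23, a titin-binding ankyrin repeat protein (0.444 and 12.5). There the other miRNAs were higher as well, with 123 and 334, 24.4 and 69.1, and 1.61 and 29.1 reads. All 3 peaks were also called wider in MOV mimic, so the reads are not of equal stretches. The Ankrd23 peak was chr1:36531481-36531497 in MOV control and chr1:36531435-36531589 in MOV mimic. The part of peak width in these changes was not tested.

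The pathways and fiber programs of muscle were described with gene lists, by the miR-206-3p share of the reads of the pair, against 39.1% in MOV control and 31.4% in MOV mimic over all nuclear peaks. Of all nuclear genes with a peak of any miRNA, 33.7% of 6645 and 31.9% of 6939 held a miR-206-3p peak. This background goes with each count of genes below. Fast fiber genes had a miR-206-3p peak in 13 of 13 cases (100%), with a share of 33.1% in MOV control and 31.2% in MOV mimic. Without Myl1 it was 25.2% and 23.6%. Besides the genes above, Myh2 had 103 miR-206-3p reads in MOV control and 71.8 in MOV mimic, Atp2a1, the calcium pump of fast fibers, had 72.6 and 64.7 (14.9% and 17.4% of the pair), and Actn3, the actinin of fast fibers, had 25.9 and 36.6 (10.1% and 7.395%). Slow fiber genes had fewer reads. Of 12, 7 in MOV control and 8 in MOV mimic had a miR-206-3p peak, in each case of 11 with a peak of any miRNA, with a share of 32.2% (24.2 to 41.2) and 22.5% (16.2 to 29.2). Mybpc1, the slow myosin-binding protein, had 20.5 and 26.4 reads and Myh7, the slow myosin, 9.67 and 6.60.

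Genes of developing and regenerating muscle had a share of 47.6% (42.2 to 53.3) in MOV control and 37.7% (31.5 to 44.4) in MOV mimic, with a miR-206-3p peak at 10 and 11 of 20 genes, of which 11 and 12 had a peak of any miRNA. Myh8, the perinatal myosin, led with 77.0 and 31.4 reads, 67.1% and 59.3% of the pair, and all miRNAs there had 373 and 270 reads. Myh3, the embryonic myosin, had 16.2 and 6.48 reads, 76.8% and 71.5%. Des, the intermediate filament of muscle, had 39.4 and 20.8 reads, 34.4% and 24.3%. Those 3 genes had fewer miR-206-3p reads in MOV mimic, with intervals of the ratio under 1 at Myh8 and Des and up to 1.01 at Myh3, where all miRNAs gave a lower ratio still, 0.295 against 0.401. Actc1, cardiac actin, went the other way, with 0.568 and 7.89 reads. Without Myh8 the share was 36.9% (30.6 to 44.1) and 31.2% (24.3 to 38.5), intervals that held the background in both libraries. Myog, a transcription factor of differentiation, had 1.66 and 2.59 miR-206-3p reads and no miR-1a-3p.

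Extracellular matrix genes had the highest share of the lists, 67.4% (65.4 to 69.4) in MOV control and 61.1% (58.9 to 63.3) in MOV mimic, with a miR-206-3p peak at 24 of 26 genes (92.3%). The share rested on Fn1. Without it the share was 31.6% and 25.5%, both under the background. Thbs1 had 75.8 and 48.8 reads, 27.4% and 16.8% of the pair. Col1a1, a chain of type I collagen, had 44.4 and 37.7, 41.6% and 36.9%. Col12a1, a fibril-associated collagen, had 31.2 and 34.1, 54.0% and 52.9%. Col3a1, a chain of type III collagen, had 11.8 and 11.5, 18.4% and 18.6%, so that collagen genes lay on both sides of the background.

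Genes of glycolysis and glycogen use had the lowest share, 23.1% (19.7 to 26.8) in MOV control and 17.8% (14.7 to 21.1) in MOV mimic. Ldha, lactate dehydrogenase, held most reads of the pair in this list, with 55.6 and 43.9 for miR-206-3p and 303 and 336 for miR-1a-3p. Without it the share was 36.3% and 29.3%. Eno3, the muscle enolase, had 18.4 miR-206-3p reads in MOV control and 5.12 in MOV mimic. Pygm, muscle glycogen phosphorylase, had 18.2 and 14.1, and Pkm, pyruvate kinase, 13.8 and 5.001.

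**Figure D5:**
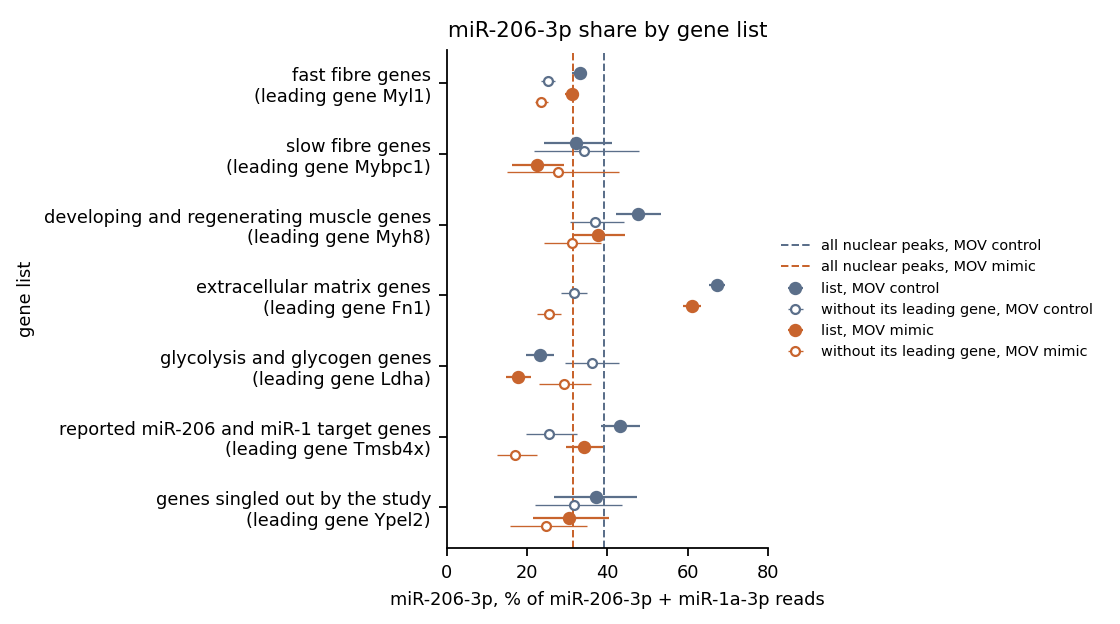
miR-206-3p share of the reads of the pair (percent) for 7 gene lists in MOV control and the mimic, with exact Clopper-Pearson intervals. Filled points are whole lists, open points leave out the gene of the list with the most miR-206-3p reads, and dashed lines mark all nuclear peaks (39.1% and 31.4%). The matrix list is the highest with Fn1 and below the dashed lines without it.

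Of 27 genes known from other work as targets of miR-206 or miR-1, 17 held a miR-206-3p peak in each library, of 23 and 24 with a peak of any miRNA, with a share of 43.1% (38.3 to 48.1) in MOV control and 34.3% (29.8 to 38.9) in MOV mimic. Tmsb4x gave most of the miR-206-3p reads of this list, and without it the share was 25.4% and 16.95%. Hdac4, a histone deacetylase that restrains muscle differentiation, had 7.14 and 2 reads. Utrn, the dystrophin relative utrophin, had 5.87 and 4.75, and Igfbp5, which binds insulin-like growth factors, had 9.37 and 7.84. For all 3 genes the counting interval of the ratio between the libraries included 1. Notch3, a receptor, had 5.90 and 4.06 reads, 74.8% and 55.0% of the pair, and Vegfa, the endothelial growth factor, had 5.05 and 1.56, 73.3% (29.04 to 96.3) and 15.1% (2.52 to 55.6), with overlapping intervals. Twf1, an actin-binding protein, had 3.32 and 4.15, Timp3, a protease inhibitor, 3.197 and 1, Cand1, a regulator of ubiquitin ligases, 1.88 and 4.08, and Fstl1, a secreted protein, 1 and 4.48.

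Of 7 genes that the study singled out as miR-1 targets, 6 held a miR-206-3p peak in each library, with a share of 37.2% (26.8 to 47.5) in MOV control and 30.5% (21.5 to 40.4) in MOV mimic, near the background in both. The study chose these genes partly on these libraries. Ypel2 had 8.66 miR-206-3p against 2.92 miR-1a-3p reads in MOV control and 8.93 against 3.94 in MOV mimic. Itgb1bp2, the muscle protein melusin, had 7.37 against 4.74 and 5.94 against 10.6, and Sh3d19 had 7.84 against 6.46 and 0.986 against 7.89. The intervals of the control shares at these 3 genes all included 50%. Itm2a had 6.53 against 19.4 and 2.13 against 18.4, B2m, a chain of MHC class I, had 1.203 against 1.66 and 8.45 against 5.62, and Nxn had 1.79 against 17.3 and 3.87 against 19.1.

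Markers of leukocytes and of endothelium held few reads of any miRNA. None of 12 macrophage and leukocyte markers had a miR-206-3p peak, where 0 reads at a gene allow up to 3.69. Of the 12, 9 in MOV control and 10 in MOV mimic had a peak of any miRNA, with 157 and 194 reads in all, such as 22.03 and 23.6 on Lyz2. Among 8 endothelial markers, 2 in each library had a miR-206-3p peak, with 1.91 reads of 59.4 for all miRNAs and 6.36 of 120. Of the reads of all miRNAs, miR-206-3p had 13.7% and 12.6% at the matrix genes, 4.65% and 3.96% at the fast fiber genes and 5.99% and 5.01% over all nuclear genes. The matrix values rest on Fn1. It held 1159 of the 1417 miR-206-3p reads of that list in MOV control and 996 of 1217 in MOV mimic. Fn1, Thbs1 and the collagens are made largely by cells other than fibers, and the part of such cells in their miR-206-3p reads was not tested.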

How the data were processed

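Values were the estimated counts deposited per peak and miRNA, which the authors did not scale to depth. According to the methods and labels, the authors trimmed adapters (cutadapt 3.2), removed repeats, aligned with STAR 2.7.7a, removed PCR duplicates (UMI-tools 1.1.1) and called peaks with CLIPper. Bowtie 1.2.3 and HOMER 4.11 are named with no role. cDNA was also amplified with a miR-1 primer, so read shares do not give miRNA abundance. Where the fractions came from, and how alike miRNAs were told apart, was not given in the sources used here. The methods name mm9 and the labels mm10; the peaks were treated as GRCm38.

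Genes came from RefSeq spans of GRCm38.p6 (49993 genes, 13524 of unknown strand). Peaks of both libraries were paired as mutual largest overlaps of at least 1 base. With 1 library per group no test was run. Shares have exact Clopper-Pearson intervals, reads exact Poisson intervals and ratios exact conditional binomial intervals, on rounded reads. Medians have order-statistic intervals over peaks, on reads that were not rounded. The intervals of shares, medians and ratios were tested on simulated data. Depth was 232408 and 259207 reads in peaks. Sequences came from RefSeq (GRCm38) and GENCODE vM1 (NCBIM37).

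miR-206-3p, the gene lists and the rules for named genes and sites were chosen with earlier results of these data known. Named genes were the 10 nuclear genes with most miR-206-3p reads per library, mitochondrial genes of at least 100 reads, the 5 sites of highest and lowest share, the 3 largest changes each way at 10 reads or more, listed target genes with at least 3 reads in a library and the first genes of other lists. A sequence of the low-share set is not reported here. Python 3.11.15, pandas 2.3.3, numpy 2.4.6, scipy 1.17.1 and matplotlib 3.10.9 were used.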

Additional observations from a re-analysis of the deposited data

How the results depend on the processing

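No paired analysis was possible because replicates were lacking in both groups. Of 109 alternative values, 0 changed direction, but most were shares or counts of genes, which have no sign to change. Without their leading gene, the matrix, developing muscle and reported target lists fell from above the share over all nuclear genes to below it. For developing muscle the intervals without that gene still held the nuclear share. Of 97 with an interval, 58 lay within that of the value reported and 39 outside it. Of 12 counts of genes, 3 were within 1.5 times the count reported and 9 were not. Most shares rest on few reads per peak, and neither library can show variation between mice.

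The share of miR-206-3p at peaks with both miRNAs (36.03% in the control, 29.5% in the mimic) was 35.5% and 29.02% with lines of at least 1 read, 34.4% and 28.3% with at least 3, 40.1% and 33.2% without the mitochondrial chromosome, 39.3% and 32.1% without the peak with most reads, 40.5% and 37.0% as a median over peaks, and 34.1% and 27.9% without Fn1, an alternative chosen after seeing the data. The share of peaks that also held miR-1a-3p was 59.8% and 63.9% with at least 1 read and 56.2% and 64.3% with at least 3.

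The share over all nuclear genes was 37.8% in the control with at least 3 reads, and 30.7% with at least 1 and 28.99% with at least 3 in the mimic. It was 35.8% and 28.7% with the mitochondrial chromosome, 39.7% and 32.0% without Rn18s-rs5, 36.9% and 29.6% without Fn1 and 40.1% and 33.2% over peaks with both miRNAs. Without its leading gene, a list gave 25.2% and 23.6% (fast fiber), 36.9% and 31.2% (developing muscle), 31.6% and 25.5% (matrix), 36.3% and 29.3% (glycolysis) and 25.4% and 16.95% (reported targets). Over peaks with both miRNAs, the matrix list gave 63.9% in the mimic.

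Divided by library totals, the median log2 change of miR-206-3p peaks was -0.16. Target genes numbered 1428 (control), 1420 (mimic) and 825 (both) with at least 1 read, 480, 481 and 304 with at least 3, and 785, 771 and 439 with at least 2 peaks.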
